A study of Mus musculus with 29 samples.

Results

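The hearts described here came from 9 mice without a tumour, in which the only designed difference was the gene that a viral vector brought to the liver. They are 9 of the 29 hearts of a study of cancer cachexia, the wasting that accompanies tumour growth. All 9 mice were wildtype BALB/c animals, all received an intravenous adeno-associated virus whose Tbg promoter is active in hepatocytes, and all received saline (PBS) in place of C26 colon tumour cells 10 days later. In the PBS_REV-ERBa group, of 5 mice, the vector carried REV-ERBα. In the PBS_GFP group, of 4 mice, it carried green fluorescent protein (GFP). The other 20 hearts came from tumour-bearing mice given the same vectors, 10 in the C26_REV-ERBa group and 10 in the C26_GFP group. Separate animal identifiers in the labels make each library 1 animal. Age, sex, vector dose, the interval to tissue collection and the time of day are not stated in those labels. The comparison asks what hepatocyte REV-ERBα does to the heart when no tumour is present, across all genes expressed there.

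REV-ERBα, encoded by Nr1d1, is a nuclear receptor that binds haem and represses transcription. Together with its partner REV-ERBβ (Nr1d2) it competes with the activating ROR receptors for the same DNA element and holds down Arntl (BMAL1), Clock, Npas2, Cry1 and Nfil3, while BMAL1 and CLOCK in turn drive the Per, Nr1d and D-box genes, which closes a daily loop. In the liver REV-ERBα also restrains genes of lipid and glucose metabolism. The heart has its own clock, and it is exposed to proteins, lipids and hormones that the liver releases into the blood, so an effect of a hepatocyte vector on the heart would be an indirect one.

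Total RNA was sequenced and the authors deposited read counts per RefSeq gene. Totals were 3207497 to 5355029 counts in PBS_REV-ERBa hearts and 3467940 to 14740569 in PBS_GFP hearts, where PBS_GFP 1 and PBS_GFP 2 exceeded 10000000. A test was possible for 12928 of 20411 genes, and 11888 reached 1 CPM (a count scaled to the library total) in all 9 hearts. Pearson's r of log2 CPM across genes was 0.975 to 0.991 between pairs of these hearts. Markers were those of heart tissue. The 12 cardiomyocyte markers summed to 67043 to 77760 CPM in PBS_REV-ERBa hearts and 69748 to 75519 CPM in PBS_GFP hearts, while the 8 lung epithelium markers summed to at most 1.53 CPM in PBS_REV-ERBa hearts and 1.72 CPM in PBS_GFP hearts. A pair of hearts stood apart. PBS_REV-ERBa 3 and PBS_GFP 2 held atrial markers at 3424 and 4764 CPM, against 1042 to 1282 CPM in the other PBS_REV-ERBa hearts and 861 to 1094 CPM in the other PBS_GFP hearts, and PBS_GFP 2 also held hepatocyte markers at 232 CPM, against 10.9 to 43.6 CPM in PBS_REV-ERBa hearts and 16.6 to 20.9 CPM in the other PBS_GFP hearts.

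No gene of the heart passed the test for an effect of the REV-ERBα vector in tumour-free mice. With edgeR's quasi-likelihood test 0 of 12928 genes had a Benjamini-Hochberg adjusted p under 0.05, a share of 0%, and the smallest adjusted p was 1. At an unadjusted p under 0.05 there were 530 genes (4.1%), 279 of them higher (2.16%) and 251 lower (1.94%) in PBS_REV-ERBa hearts.  Other tools run on the same counts passed 1 gene each: DESeq2 passed Cyp3a11, a hepatocyte enzyme with 113 counts in PBS_GFP 2 and 0 in the other 8 hearts, and limma voom with sample weights passed Hspa1b. The 5 and the 4 hearts did not overlap for 211 genes (1.63%), 111 with every PBS_REV-ERBa heart above every PBS_GFP heart (0.859%) and 100 with every one below (0.774%). Without PBS_REV-ERBa 3 and PBS_GFP 2, and without the atrial-rich tumour-bearing hearts, the test again passed 0 genes, with 401 at an unadjusted p under 0.05.

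The intervals were narrow for most genes, which sets the size of effect that the data leave room for. Across all genes the median log2 fold change was 0.00, the quartiles were -0.09 and 0.09, and the median standard error (SE) was 0.13. The 95% interval lay within 2-fold in both directions for 11672 genes (90.3%) and within 1.5-fold for 9560 (73.9%). Among the 7245 genes with a mean of at least 20 CPM the same counts were 7193 (99.3%) and 6867 (94.8%). A fold change estimated past 2-fold was seen for 105 genes, of which only 4 reached 20 CPM.

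No clock gene of the heart passed, and Npas2 and Clock were the members whose hearts did not overlap, 2 of 20 genes in the clock lists, against 1.63% of all genes tested. Nr1d1 itself (NM_145434, chromosome 11, 98767932 to 98775377, minus strand, mm10) had 187, 191, 178, 259 and 182 CPM in PBS_REV-ERBa hearts, against 226, 214, 201 and 137 CPM in PBS_GFP hearts. PBS_REV-ERBa 4 was the highest and PBS_GFP 4 the lowest of these hearts, and the groups overlapped. The means were 199 ± 33.8 CPM in PBS_REV-ERBa hearts (SD, n = 5) and 195 ± 39.5 CPM in PBS_GFP hearts (SD, n = 4), a log2 fold change of 0.03 ± 0.24 (SE) with a 95% interval of -0.46 to 0.52. Since the Tbg promoter acts in hepatocytes, heart Nr1d1 does not check which vector a mouse received, and the labels do not say which species' sequence the vector carried. Nr1d2, its partner, averaged 296 ± 17.5 CPM in PBS_REV-ERBa hearts (SD, n = 5) and 284 ± 19.5 CPM in PBS_GFP hearts (SD, n = 4), with a log2 fold change of 0.06 ± 0.11.

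In the arm that REV-ERBs repress, 6 genes were tested and 0 passed. Estimates of the log2 fold change were above 0 for 4 and below 0 for 2, with a median log2 fold change of 0.03 that ranged between -0.06 and 0.10 over 25 alternatives. Npas2, the CLOCK paralogue that also pairs with BMAL1, had 3.07, 2.03, 2.55, 2.49 and 4.28 CPM in PBS_REV-ERBa hearts, against 1.66, 1.23, 1.43 and 1.45 CPM in PBS_GFP hearts. Every PBS_REV-ERBa heart was above every PBS_GFP heart, at levels of a few CPM. The log2 fold change was 0.99 ± 0.42, with a 95% interval of 0.14 to 1.85 (edgeR unadjusted p = 0.0244, adjusted p = 1). Clock, the histone-acetylating partner of BMAL1, had 55.9, 59.98, 56.6, 62.6 and 64.0 CPM in PBS_REV-ERBa hearts, against 66.2, 72.7, 73.7 and 71.2 CPM in PBS_GFP hearts. Here every PBS_REV-ERBa heart was below every PBS_GFP heart, by a log2 fold change of -0.24 ± 0.14 (edgeR unadjusted p = 0.0894, adjusted p = 1). In a fit of the 9 tumour-free hearts alone the SE of Clock was 0.069 (edgeR unadjusted p = 0.00409, adjusted p = 0.992). Arntl was near the limit of detection, at 0.614, 1.45, 0.464, 1.34 and 0.972 CPM in PBS_REV-ERBa hearts, against 1.46, 0.56795, 1.15 and 0.291 CPM in PBS_GFP hearts. The order of the hearts was mixed for Arntl, and its interval of -1.55 to 1.64 leaves its change unresolved at this depth. Cry1, a repressor of CLOCK and BMAL1, had means of 18.1 against 17.01 CPM in PBS_REV-ERBa and PBS_GFP hearts, and Nfil3, a repressor at D-box elements, 20.4 against 22.2 CPM. Their log2 fold changes were 0.12 and -0.11, and for both the groups overlapped.

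Of the 6 genes, 5 had a promoter in RefSeq's table (GRCm38.p6), and 2 of those windows, 250 bases before and 50 after the start, held the heptamer TAGGTCA on either strand, the core of the element that REV-ERB and ROR share. Both sites are shown in the direction of their gene, with the heptamer in capitals, because Arntl stands at the centre of the loop and Nfil3 passed in tumour-bearing hearts. In Nfil3 it lies on the opposite strand and so reads TGACCTA.
Arntl, chr7:113207530-113207559, plus strand, 30 bases after the start: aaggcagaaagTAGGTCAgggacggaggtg
Nfil3, chr13:52981033-52981062, minus strand, 12 bases before the start: gcgctcggaacTGACCTActaacacacatc
The heptamer was present in 2.61% of the 32851 windows in the table. That is a share of single windows, whereas a clock gene was counted when any of its windows held the heptamer, so the 2 are not comparable. Arntl and Nfil3 had log2 fold changes of 0.04 ± 0.78 and -0.11 ± 0.33.

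The 14 genes of the other arm, with the PER and CRY2 repressors, both REV-ERBs and the D-box factors, were measured more tightly. All 14 intervals lay within 2-fold, 0 passed, 0 had an unadjusted p under 0.05, and 10 had estimates above 0, with a median log2 fold change of 0.07. Dbp, an activator at D-box elements with one of the strongest daily rhythms, had 376, 349.7, 318, 342 and 321 CPM in PBS_REV-ERBa hearts, against 315, 325, 341 and 246 CPM in PBS_GFP hearts. PBS_REV-ERBa 1 was the highest and PBS_GFP 4 the lowest, and the other 7 hearts lay between 315 and 349.7 CPM. Tef, a second D-box activator, averaged 698 ± 35.5 CPM in PBS_REV-ERBa hearts (SD, n = 5) and 657 ± 17.8 CPM in PBS_GFP hearts (SD, n = 4), and Hlf, the third, 139 ± 24.4 CPM in PBS_REV-ERBa hearts (SD, n = 5) and 125 ± 16.4 CPM in PBS_GFP hearts (SD, n = 4). Per1, Per2 and Per3, the period repressors, had log2 fold changes of -0.15, 0.02 and 0.14. Per2 varied within both groups, with 84.1, 96.5, 127, 68.2 and 125 CPM in PBS_REV-ERBa hearts, against 85.4, 102, 77.8 and 131 CPM in PBS_GFP hearts. The largest and smallest estimates of the 14 were 0.17 for Wee1, a cell cycle kinase under clock control, and -0.15 for Per1.

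**Figure D1:**
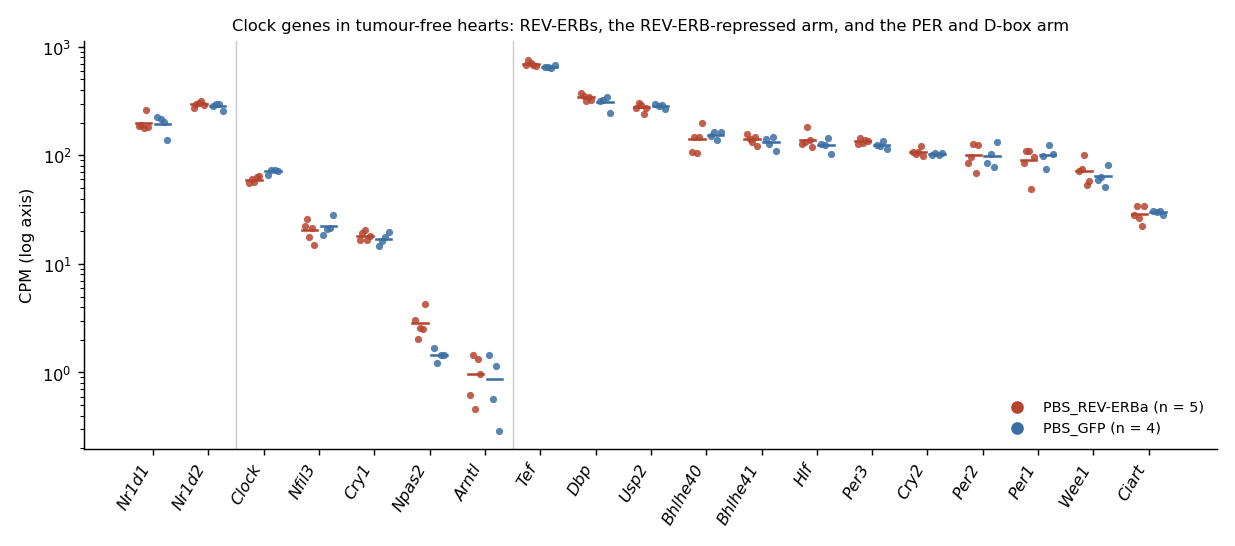
CPM on a log axis for 19 clock genes in each tumour-free heart, PBS_REV-ERBa hearts left of PBS_GFP hearts, with points for hearts and lines for group means; the panels hold the REV-ERBs, the arm they repress, and the PER and D-box arm. Npas2 lies higher and Clock lower in every PBS_REV-ERBa heart than in any PBS_GFP heart, and the other 17 genes overlap; over all genes tested 1.63% did not overlap.

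None passed, and the 5 genes with the smallest p in each direction are described, among those with a mean of at least 5 CPM. On the higher side Has3, which makes the matrix sugar hyaluronan, had 14.4, 18.0, 14.2, 13.03 and 14.4 CPM in PBS_REV-ERBa hearts, against 7.34, 9.09, 10.0 and 6.98 CPM in PBS_GFP hearts. All PBS_REV-ERBa hearts were above all PBS_GFP hearts, and the log2 fold change was 0.82 ± 0.21 (edgeR unadjusted p = 0.000585, adjusted p = 1). Dlg5, a scaffold protein of cell polarity, had 24.9, 28.97, 30.6, 25.5 and 24.3 CPM in PBS_REV-ERBa hearts, against 21.0, 20.9, 21.8 and 22.4 CPM in PBS_GFP hearts, again without overlap, for a log2 fold change of 0.32 ± 0.08. The other 3 overlapped in 1 heart each: Cirh1a, a nucleolar protein of ribosome assembly, averaged 10.5 against 7.74 CPM in PBS_REV-ERBa and PBS_GFP hearts, Nrn1, a membrane-anchored neuritin, 7.69 against 3.98 CPM, and Wnt5b, a secreted Wnt ligand, 9.12 against 5.84 CPM. Their log2 fold changes were 0.46 ± 0.12, 1.05 ± 0.29 and 0.65 ± 0.18. For Nrn1 the overlap came from PBS_GFP 4, at 7.27 CPM, against 2.77 to 3.03 CPM in the other PBS_GFP hearts.

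On the lower side Hspa1b had the smallest p of all genes and is described with the chaperones. Alkbh3, an enzyme that removes methyl groups from damaged DNA and RNA, had 22.4, 18.8, 19.96, 17.2 and 19.2 CPM in PBS_REV-ERBa hearts, against 26.1, 24.0, 27.8 and 24.4 CPM in PBS_GFP hearts. The groups did not overlap, and the log2 fold change was -0.39 ± 0.09 (edgeR unadjusted p = 0.000238, adjusted p = 1). Cd14, a co-receptor for bacterial lipopolysaccharide on monocytes and macrophages, had 12.3, 6.95, 9.75, 7.47 and 11.9 CPM in PBS_REV-ERBa hearts, against 15.7, 13.2, 17.2 and 13.4 CPM in PBS_GFP hearts, without overlap and with a log2 fold change of -0.62 ± 0.17. Aftph, a protein of clathrin traffic, averaged 41.3 against 50.3 CPM in PBS_REV-ERBa and PBS_GFP hearts, and Ly6a, a surface protein of endothelial and progenitor cells, 54.3 against 66.8 CPM, with log2 fold changes of -0.28 ± 0.07 and -0.29 ± 0.09 and 1 PBS_REV-ERBa heart of each within the PBS_GFP range. Under the 25 alternatives no estimate of these 10 genes turned its sign, and of them only Hspa1b passed, under 2. The 10 were chosen by their p in these counts, and the alternatives refit the same or nearly the same hearts. A stable sign was therefore likely beforehand and is no separate support.

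**Figure D2:**
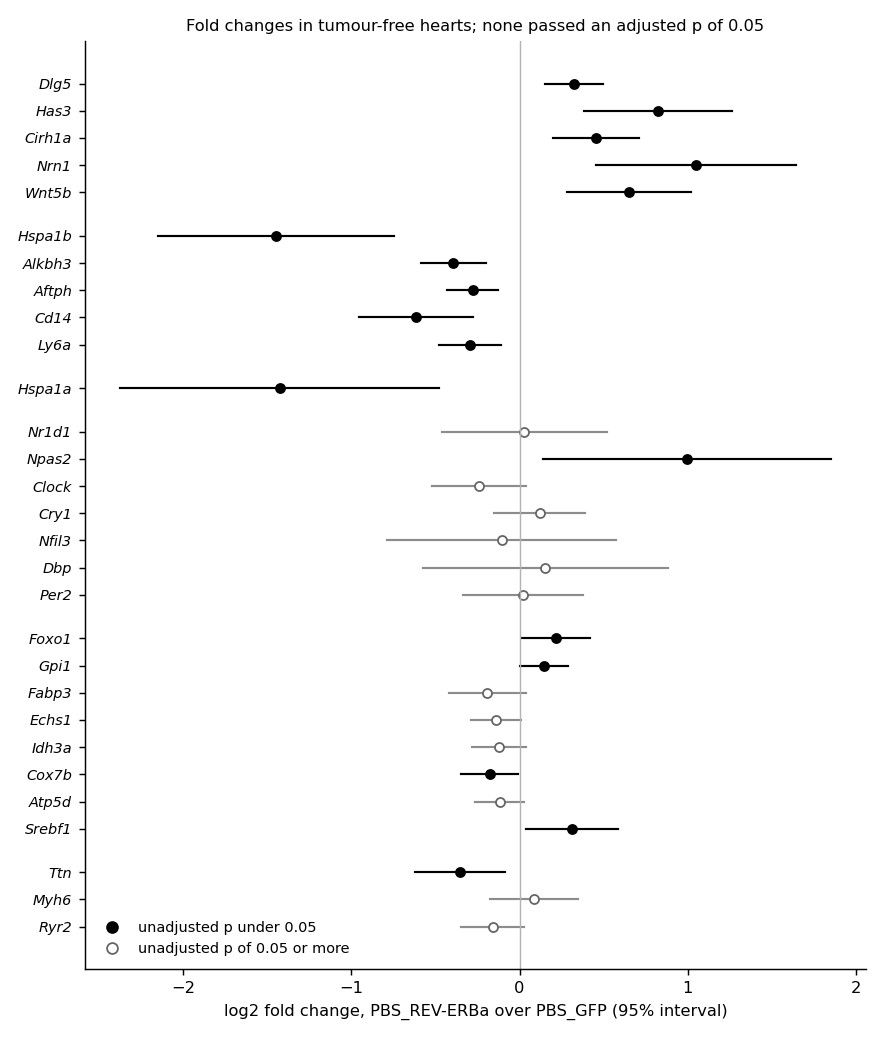
Log2 fold change of PBS_REV-ERBa over PBS_GFP hearts with its 95% interval. The first genes are the 5 with the smallest p in each direction, at a mean of at least 5 CPM and with a proper symbol. Selected chaperone, clock, metabolic and contractile genes follow. Filled points have an unadjusted p under 0.05, and no gene passed an adjusted p of 0.05. The 2 inducible Hsp70 genes lie furthest to the left, at -1.45 and -1.42.

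Among heat shock and endoplasmic reticulum chaperones the 2 inducible Hsp70 genes stood lower in every PBS_REV-ERBa heart. Hsp70 proteins bind unfolded proteins; Hspa1a and Hspa1b encode the inducible forms, which heat shock factor switches on under stress. Hspa1b (NM_010478, chromosome 17, 34956429 to 34959238, minus strand, mm10) had 5.52, 7.82, 8.36, 5.56 and 12.4 CPM in PBS_REV-ERBa hearts, against 21.2, 29.2, 17.2 and 18.9 CPM in PBS_GFP hearts. The highest PBS_REV-ERBa heart lay below the lowest PBS_GFP heart, and the means were 7.94 ± 2.83 CPM in PBS_REV-ERBa hearts (SD, n = 5) and 21.6 ± 5.28 CPM in PBS_GFP hearts (SD, n = 4). The log2 fold change was -1.45 ± 0.34, with a 95% interval of -2.15 to -0.75 (edgeR unadjusted p = 0.000215, adjusted p = 1). Hspa1a (NM_010479, chromosome 17, 34969359 to 34972156, minus strand) had 12.6, 10.1, 10.2, 16.7 and 8.94 CPM in PBS_REV-ERBa hearts, against 34.0, 38.2, 26.1 and 25.9 CPM in PBS_GFP hearts, again with no overlap, for a log2 fold change of -1.42 ± 0.46 (edgeR unadjusted p = 0.00454, adjusted p = 1). The spread in that test was estimated over all 29 hearts. In a fit of the 9 tumour-free hearts alone the SE of Hspa1a was 0.18 and it passed (edgeR adjusted p = 0.0205), while Hspa1b did not (edgeR adjusted p = 0.105), so the call depends on which hearts give the spread. Over 25 alternatives the adjusted p of Hspa1a lay between 0.0205 and 1, with 1 of them under 0.05, and that of Hspa1b between 0.00312 and 1, with 2 of them under 0.05. Without the atrial-rich hearts the log2 fold changes were -1.27 ± 0.25 for Hspa1b and -1.26 ± 0.36 for Hspa1a, and over the 25 alternatives they ranged between -1.69 and -1.17, and between -1.60 and -1.14.

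The 2 genes are near-identical neighbours, so their counts are uncertain one by one: 58.8% of the 50-base windows of the Hspa1a transcript (GENCODE) are also found in Hspa1b, and 62.3% of those of Hspa1b in Hspa1a. They are shown because their promoters are also nearly the same. The sequences are the 250 bases before each start (RefSeq, GRCm38.p6, minus strand), with the motif GAANNTTC, the core of a heat shock element, in capitals.
Hspa1a, chr17:34972157-34972406: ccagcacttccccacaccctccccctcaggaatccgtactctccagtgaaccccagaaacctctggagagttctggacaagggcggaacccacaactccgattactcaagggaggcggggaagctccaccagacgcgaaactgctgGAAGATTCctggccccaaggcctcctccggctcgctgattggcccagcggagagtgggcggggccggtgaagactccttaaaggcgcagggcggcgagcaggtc
Hspa1b, chr17:34959239-34959488: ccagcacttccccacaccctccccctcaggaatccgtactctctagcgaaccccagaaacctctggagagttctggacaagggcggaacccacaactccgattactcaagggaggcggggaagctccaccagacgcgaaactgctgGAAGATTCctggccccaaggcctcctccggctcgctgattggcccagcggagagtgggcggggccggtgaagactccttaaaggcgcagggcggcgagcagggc
They differ at 3 of 250 bases, and in both the motif begins 104 bases before the start. The motif reads the same on both strands and occurs in 6.69% of the 32851 promoter windows over those 250 bases. Of 22 genes of the chaperone list with a window it was found in 6, Hspa1a and Hspa1b among them. A gene was counted when any of its windows held the motif, so this count is not comparable with the 6.69% of single windows.

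Of the 27 chaperones 8 were above 0 and 19 below, and 0 passed. An unadjusted p under 0.05 was found for 3, all lower and all without overlap. Over all genes tested, 1.94% were lower at that limit and 0.774% were lower without overlap, and the difference between the list and all genes was not tested. The median log2 fold change of the list was -0.05, against 0.00 over all genes. The third was Hsp90aa1, the stress-inducible cytosolic Hsp90, with 138, 159, 119.5, 148 and 157 CPM in PBS_REV-ERBa hearts, against 167, 216, 177 and 190.4 CPM in PBS_GFP hearts and a log2 fold change of -0.38 ± 0.17. The constitutive forms were closer: Hspa8 averaged 612 against 665 CPM in PBS_REV-ERBa and PBS_GFP hearts, and Hsp90ab1 1269 against 1328 CPM. Their log2 fold changes were -0.12 ± 0.14 and -0.07 ± 0.07. Dnajb1, an Hsp40 co-chaperone that heat shock also induces, had 33.8, 58.2, 61.3, 24.5 and 63.0 CPM in PBS_REV-ERBa hearts, against 24.1, 45.1, 31.8 and 38.1 CPM in PBS_GFP hearts, with overlap, and a log2 fold change of 0.47 ± 0.24. Hspa5 (BiP), the Hsp70 of the endoplasmic reticulum, had a log2 fold change of -0.04 ± 0.17.

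Genes of energy metabolism sat slightly below 0 as groups, and each by little. Of 51 nuclear genes of oxidative phosphorylation, which build the respiratory chain and ATP synthase, 7 had estimates above 0 and 44 below, with a median log2 fold change of -0.06. Over all genes tested 6456 were above 0 and 6471 below. All 51 intervals lay within 1.5-fold, 0 passed and 1 had an unadjusted p under 0.05, Cox7b, a small subunit of cytochrome c oxidase, at 106 ± 10.4 CPM in PBS_REV-ERBa hearts (SD, n = 5) and 120.0 ± 10.5 CPM in PBS_GFP hearts (SD, n = 4). The mean over the 51 genes, as log2(CPM + 1), was 7.52, 7.45, 7.56, 7.67 and 7.42 log2 in PBS_REV-ERBa hearts, against 7.73, 7.48, 7.61 and 7.50 log2 in PBS_GFP hearts, so the groups overlapped and PBS_GFP 1 was the highest heart. In the TCA cycle and ketone use, 5 of 18 were above 0 and 13 below, with a median of -0.06. Idh3a, a subunit of isocitrate dehydrogenase, had a log2 fold change of -0.12 ± 0.08. In fatty acid uptake, oxidation and PPAR targets, 9 of 36 were above 0 and 27 below, with 0 at an unadjusted p under 0.05 and a median of -0.06. Fabp3, the fatty acid carrier of heart muscle, averaged 1132 ± 105 CPM in PBS_REV-ERBa hearts (SD, n = 5) and 1292 ± 64.1 CPM in PBS_GFP hearts (SD, n = 4), and Cd36, the fatty acid transporter, 1202 ± 95.4 CPM in PBS_REV-ERBa hearts (SD, n = 5) and 1254 ± 77.3 CPM in PBS_GFP hearts (SD, n = 4). The medians of these 3 lists stayed below 0 under all 25 alternatives, but their size moved when single hearts were left out. For oxidative phosphorylation the median was -0.10 without PBS_REV-ERBa 4, -0.03 without PBS_REV-ERBa 5, -0.0093 without PBS_GFP 1, -0.09 without PBS_GFP 2 and -0.10 without the atrial-rich hearts. It ranged between -0.09 and -0.03 for the TCA cycle and ketone use and between -0.10 and -0.03 for the fatty acid list.

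A few PPAR-responsive genes were spread widely over the hearts of each group. Pdk4, the kinase that holds glucose carbon out of the TCA cycle, had 1988, 1362, 1468, 2547 and 930.4 CPM in PBS_REV-ERBa hearts, against 1354, 1736, 1968 and 1807 CPM in PBS_GFP hearts. Angptl4, a secreted inhibitor of lipoprotein lipase, had 48.5, 9.85, 18.1, 88.9 and 3.89 CPM in PBS_REV-ERBa hearts, against 19.5, 30.1, 34.7 and 8.72 CPM in PBS_GFP hearts. Ucp3, a mitochondrial carrier induced by fasting, had 209, 119, 150.4, 235 and 70.6 CPM in PBS_REV-ERBa hearts, against 119.6, 144, 188 and 118 CPM in PBS_GFP hearts. PBS_REV-ERBa 4 was the highest and PBS_REV-ERBa 5 the lowest of the 9 hearts for all 3 genes, which were set side by side after their values were seen. Their log2 fold changes were -0.05 ± 0.55, 0.54 ± 0.80 and 0.14 ± 0.62.

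In glucose uptake and glycolysis, 11 of 26 were above 0 and 15 below, with a median of -0.04, and 1 gene had an unadjusted p under 0.05, Gpi1, the glucose phosphate isomerase, at 276 ± 23.9 CPM in PBS_REV-ERBa hearts (SD, n = 5) and 249 ± 11.3 CPM in PBS_GFP hearts (SD, n = 4). Slc2a4 (GLUT4), the insulin-regulated glucose transporter, averaged 554 against 570.4 CPM in PBS_REV-ERBa and PBS_GFP hearts. In insulin, IGF and mTOR signalling, 18 of 25 were above 0 and 7 below. Foxo1, a transcription factor that insulin restrains, averaged 83.0 ± 4.40 CPM in PBS_REV-ERBa hearts (SD, n = 5) and 71.4 ± 11.7 CPM in PBS_GFP hearts (SD, n = 4) (edgeR unadjusted p = 0.0343, adjusted p = 1), and Insr, the insulin receptor, had a log2 fold change of -0.10 ± 0.14. In lipid and cholesterol synthesis, 15 of 25 were above 0 and 10 below. Srebf1, which drives lipid synthesis, had 63.8, 45.8, 52.9, 54.6 and 47.8 CPM in PBS_REV-ERBa hearts, against 39.6, 44.0, 41.3 and 46.2 CPM in PBS_GFP hearts. Of the 9 hearts PBS_REV-ERBa 1 was the highest for Srebf1, and PBS_REV-ERBa 2 was the only one within the PBS_GFP range. Thrsp, another lipogenic gene, averaged 70.7 against 93.2 CPM in PBS_REV-ERBa and PBS_GFP hearts, with a log2 fold change of -0.42 ± 0.25.

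Receptors through which the heart would read signals of the liver and endocrine organs were level. Of 32 receptors listed, 30 were tested, 0 passed and 0 had an unadjusted p under 0.05; 16 were above 0 and 14 below, with estimates between -0.19 and 0.21 and all 30 intervals within 2-fold. The members with the smallest p were Thra, a thyroid hormone receptor, at 0.14 ± 0.10, Adipor2, an adiponectin receptor, at -0.16 ± 0.12, Vldlr, a lipoprotein receptor, at -0.19 ± 0.15, and Lrp1, a scavenger receptor, at 0.17 ± 0.14. Nr3c1, the glucocorticoid receptor, had 216, 238, 238, 246 and 259 CPM in PBS_REV-ERBa hearts, against 244, 239, 239 and 245 CPM in PBS_GFP hearts and a log2 fold change of -0.01 ± 0.10. Of its targets 4 of 21 were above 0 and 17 below, with a median of -0.10 and 0 at an unadjusted p under 0.05. In adrenergic and muscarinic signalling, 14 of 22 were above 0 and 8 below.

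The contractile apparatus showed the same pattern of small differences. Of the sarcomere genes 12 of 24 were above 0 and 12 below, and 1 had an unadjusted p under 0.05. That was Ttn, the giant spring of the sarcomere, with 8764, 9987, 11225, 12860.0 and 11311 CPM in PBS_REV-ERBa hearts, against 12635, 13874, 14139 and 14743 CPM in PBS_GFP hearts. PBS_REV-ERBa 4 lay within the PBS_GFP range and the other 4 PBS_REV-ERBa hearts below it, for a log2 fold change of -0.35 ± 0.13 (edgeR unadjusted p = 0.0107, adjusted p = 1). Myh7, the slow myosin heavy chain of fetal and stressed ventricle, had 2429.6, 2548, 2779.5, 2879 and 2413 CPM in PBS_REV-ERBa hearts, against 2388, 2230.4, 2212 and 2354 CPM in PBS_GFP hearts. All PBS_REV-ERBa hearts were above all PBS_GFP hearts by a log2 fold change of 0.18 ± 0.23 (edgeR unadjusted p = 0.437, adjusted p = 1). In the fit of the 9 tumour-free hearts alone the SE of Myh7 was 0.068 (edgeR unadjusted p = 0.0168, adjusted p = 0.992). Per length, Myh7 made up 10.1 ± 0.46% of Myh6 plus Myh7 in PBS_REV-ERBa hearts (SD, n = 5) and 9.49 ± 0.34% in PBS_GFP hearts (SD, n = 4), a difference that did not pass a two-sided exact permutation test (p = 0.0794, adjusted over 5 ratios 0.397, smallest possible p 0.0159). The other 4 ratios, Acta1 to Actc1, Slc2a1 to Slc2a4, Pdk4 to Pdk2 and Hspa1b to Hspa1a, had exact permutation p-values of 0.46, 0.746, 0.667 and 1. In calcium handling and ion channels, 11 of 28 were above 0 and 17 below. Ryr2, the calcium release channel, averaged 1985 ± 188 CPM in PBS_REV-ERBa hearts (SD, n = 5) and 2217 ± 41.0 CPM in PBS_GFP hearts (SD, n = 4). Of the fetal and stress genes 14 were tested, 6 above 0 and 8 below, with a median of -0.14, or 0.16 without PBS_GFP 2. Nppb, a natriuretic peptide of the stretched ventricle, averaged 209 ± 96.9 CPM in PBS_REV-ERBa hearts (SD, n = 5) and 241 ± 73.8 CPM in PBS_GFP hearts (SD, n = 4), with a log2 fold change of -0.20 ± 0.42. In the atrophy list 9 of 20 were above 0 and 11 below. Trim63 and Fbxo32, the ubiquitin ligases of muscle atrophy, averaged 235 against 239.7 CPM and 453 against 492 CPM in PBS_REV-ERBa and PBS_GFP hearts.

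Across all 25 pathway lists, the clock, metabolic and contractile ones included, 569 distinct genes were tested, 0 passed, and 13 (2.28%) had an unadjusted p under 0.05, against 4.1% of all genes. Of the 13, 6 were higher and 7 lower, and 3 of the 7 were the chaperones Hspa1b, Hspa1a and Hsp90aa1. List medians lay between -0.14 and 0.07. Of 22 acute phase and interleukin-6 genes tested, 7 were above 0, 14 below and 1 at 0. The median of that list was -0.09, or -0.0041 without PBS_GFP 2. Lrg1, a secreted acute phase glycoprotein, had 91.2, 79.1, 85.4, 87.0 and 78.2 CPM in PBS_REV-ERBa hearts, against 96.9, 94.2, 96.1 and 109 CPM in PBS_GFP hearts, with all PBS_REV-ERBa hearts below all PBS_GFP hearts and a log2 fold change of -0.23 ± 0.31. In the fit of the 9 tumour-free hearts alone the SE of Lrg1 was 0.069 (edgeR unadjusted p = 0.00517, adjusted p = 0.992). Fga and Fgg, fibrinogen chains made by hepatocytes, were at 0 in every PBS_REV-ERBa heart and had 13.3 and 2.93 CPM in PBS_GFP 2, the heart with hepatocyte markers, against at most 0.287 CPM in the other PBS_GFP hearts. In interferon response and antigen presentation, 12 of 30 were above 0 and 18 below. Gbp4, an interferon-induced GTPase, had 38.7, 35.6, 30.9, 49.0 and 46.9 CPM in PBS_REV-ERBa hearts, against 117, 37.2, 84.6 and 41.3 CPM in PBS_GFP hearts. PBS_GFP 1 and PBS_GFP 3 were the high hearts for Gbp4, and the others overlapped. In NF-kB targets and chemokines, 14 of 21 were above 0 and 7 below. Ccl9, a chemokine of myeloid cells, averaged 5.71 ± 1.38 CPM in PBS_REV-ERBa hearts (SD, n = 5) and 9.03 ± 1.82 CPM in PBS_GFP hearts (SD, n = 4). Of vascular growth factors and apelin 18 of 24 were above 0 and 6 below. Tie1, an endothelial receptor tyrosine kinase, had 101, 101, 95.2, 109.8 and 104 CPM in PBS_REV-ERBa hearts, against 91.3, 93.0, 78.9 and 86.3 CPM in PBS_GFP hearts. All PBS_REV-ERBa hearts lay above all PBS_GFP hearts for Tie1, by a log2 fold change of 0.22 ± 0.08 (edgeR unadjusted p = 0.0113, adjusted p = 1). Of collagens and matrix genes 18 of 31 were above 0 and 13 below, and of immediate early genes 11 of 22 were above 0 and 11 below. Of genes of ATF4 and amino acid stress 6 of 17 were above 0 and 11 below, and of cell cycle and mitosis 6 of 14 were above 0 and 8 below. Of autophagy and lysosome genes 11 of 27 were above 0 and 16 below, with Atg7, which lipidates autophagosome proteins, at 29.6 ± 2.15 CPM in PBS_REV-ERBa hearts (SD, n = 5) and 25.8 ± 1.31 CPM in PBS_GFP hearts (SD, n = 4).

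Markers of the cell types that a piece of heart can hold were set beside these results. In bulk tissue, fewer cells of a type and less RNA per cell cannot be told apart. Cardiomyocyte, ventricular and pericyte sums overlapped between the groups. Of 16 macrophage and monocyte markers 15 had estimates below 0, with a median of -0.14, or 0.05 without the libraries above 10000000 counts, which here are both PBS_GFP hearts. Their summed level was 515, 423, 541, 385 and 399 CPM in PBS_REV-ERBa hearts, against 549, 572, 487 and 457 CPM in PBS_GFP hearts, so the groups overlapped, and Lyz2, the lysozyme of myeloid cells, averaged 119.6 ± 18.8 CPM in PBS_REV-ERBa hearts (SD, n = 5) and 153 ± 20.7 CPM in PBS_GFP hearts (SD, n = 4). The part of this in the lower Cd14 and Ccl9 was not tested. Of 12 endothelial markers 11 were above 0, with a median of 0.10 and sums of 1713, 1859, 1555, 1858 and 1857 CPM in PBS_REV-ERBa hearts, against 1716, 1626, 1666 and 1657 CPM in PBS_GFP hearts. The part of this in the higher Tie1, itself one of the 12, was not tested. Of 12 fibroblast markers 11 were above 0, and all 7 tested smooth muscle markers were, with medians of 0.08 and 0.27. Smooth muscle sums were 853, 657, 869, 553 and 544 CPM in PBS_REV-ERBa hearts, against 559.9, 737, 569 and 546 CPM in PBS_GFP hearts, highest in PBS_REV-ERBa 3 and PBS_REV-ERBa 1. Myh11, the smooth muscle myosin, had 74.0, 62.3, 88.4, 25.9 and 32.7 CPM in PBS_REV-ERBa hearts, against 26.4, 59.4, 31.0 and 34.9 CPM in PBS_GFP hearts. PBS_REV-ERBa 1, 2 and 3 and PBS_GFP 2 were the high hearts. Without PBS_GFP 2 the smooth muscle median was 0.89. Without PBS_GFP 2 the medians of the endothelial, fibroblast and macrophage lists were 0.08, 0.15 and -0.13. Of 10 neutrophil markers only 2 had enough counts for a test, 2 were at 0 in all 9 hearts, both tested ones were below 0, and the summed level was 2.49 to 4.05 CPM in PBS_REV-ERBa hearts and 2.15 to 5.45 CPM in PBS_GFP hearts.

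For the remaining cell types 0 markers passed. All 6 platelet markers tested were below 0 and their sums were 14.1, 15.6, 26.4, 17.4 and 19.4 CPM in PBS_REV-ERBa hearts, against 24.4, 43.2, 19.8 and 21.8 CPM in PBS_GFP hearts. PBS_GFP 2 was the highest heart. The platelet median was -1.04, or -0.37 without that heart and -0.049 without the libraries above 10000000 counts. Among mesothelial and epicardial markers 2 of 7 were above 0 and 5 below, and PBS_REV-ERBa 3 and PBS_GFP 2 were again the highest of the 9, at 27.1 and 34.1 CPM. Among markers of the conduction system 5 of 6 were above 0 and 1 below, of ventricular muscle 5 of 8 were above 0 and 3 below, of cardiomyocytes in general 5 of 12 were above 0 and 7 below, and of pericytes 4 of 8 were above 0 and 4 below. Conduction markers had a median of 0.17, or 0.55 without PBS_GFP 2 and -0.25 without PBS_REV-ERBa 3, and mesothelial markers -0.10, or 1.16 without PBS_GFP 2 and -1.29 without PBS_REV-ERBa 3, so the sign of both rested on single hearts. Endocardial markers gave 3 of 5 above 0, lymphatic endothelium 3 of 6 above 0, Schwann cells and neurons 5 of 6 above 0, adipocytes 4 of 6 above 0, brown adipocytes 3 of 5 above 0 and skeletal muscle 0 of 3 above 0. The last 2 lists do not show that those cells were present. Ucp1 of the brown adipocyte list and Myh1, Myh2 and Myh4 of the skeletal muscle list had at most 2 counts in any of these hearts. The skeletal muscle markers tested were Ckm, Myl1 and Atp2a1, and Ckm is among the most abundant genes of these hearts. The median of the Schwann cell and neuron list was 0.31, or 0.46 without PBS_GFP 2, and that of the skeletal muscle list -0.24, or -0.13. Of the adipocyte markers Cidec, a lipid droplet protein, had 10.7, 2.32, 6.27, 0.766 and 0 CPM in PBS_REV-ERBa hearts, against 0.139, 8.42, 0.287 and 0.291 CPM in PBS_GFP hearts. PBS_REV-ERBa 1, PBS_GFP 2 and PBS_REV-ERBa 3 were the high hearts, and the groups overlapped. The adipocyte median was 0.20, -0.23 without PBS_REV-ERBa 1, -0.10 without PBS_GFP 1 and 4.12 without PBS_GFP 2, the last a fitted value against hearts near 0 that bounds nothing. Lymphocytes and red cells could hardly be tested: 1 marker each of T and NK cells, B cells and erythroid cells had enough counts, below 0 for T and NK cells and erythroid cells and above 0 for B cells.

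The atrial and liver signals fell on single hearts rather than on a group. Atrial markers summed to 1105, 1108, 3424, 1282 and 1042 CPM in PBS_REV-ERBa hearts, against 861, 4764, 1094 and 1085 CPM in PBS_GFP hearts. Bmp10, a growth factor of atrial muscle, had 0, 0, 33.9, 0 and 0 CPM in PBS_REV-ERBa hearts, against 0, 372, 0 and 0.291 CPM in PBS_GFP hearts, so that the other 7 hearts were at 0 or at 1 count. Nppa, the atrial natriuretic peptide, had 206, 206, 1519, 352 and 150.3 CPM in PBS_REV-ERBa hearts, against 36.6, 2565, 154 and 159 CPM in PBS_GFP hearts. Only PBS_REV-ERBa 3 and PBS_GFP 2 were high for both. The log2 fold change of Nppa was -0.59 ± 1.29 with all hearts and 1.02 ± 0.46 without the atrial-rich ones. Hepatocyte markers summed to 33.7, 20.6, 43.6, 18.8 and 10.9 CPM in PBS_REV-ERBa hearts, against 19.3, 232, 20.9 and 16.6 CPM in PBS_GFP hearts, and 18 of the 19 were highest in PBS_GFP 2. Alb, the albumin of plasma, had 291 counts in that heart and at most 2 counts in any PBS_REV-ERBa heart and 5 in the other PBS_GFP hearts. Among atrial markers 4 of 12 were above 0 and 8 below. Of the 14 hepatocyte markers tested 13 were below 0 and 6 had an unadjusted p under 0.05, all lower in PBS_REV-ERBa hearts, and the other 3 PBS_GFP hearts had sums within the PBS_REV-ERBa range.

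**Figure D3:**
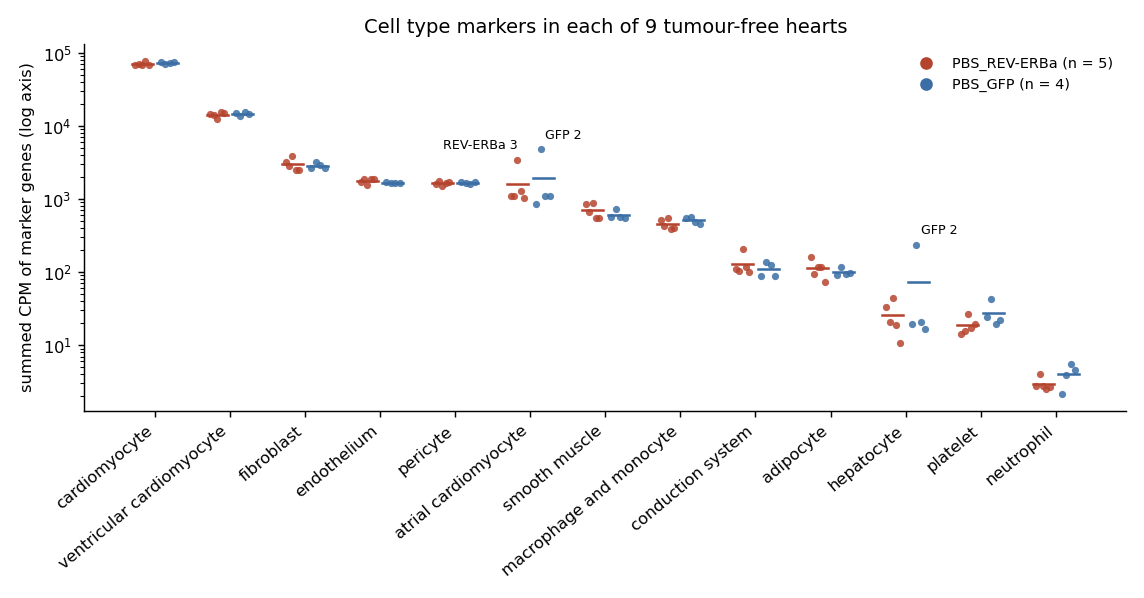
Summed CPM of 13 cell type marker lists on a log axis in each tumour-free heart, PBS_REV-ERBa hearts left of PBS_GFP hearts, with lines for group means. The labelled points are PBS_REV-ERBa 3 and PBS_GFP 2 for atrial markers, at 3424 and 4764 CPM, and PBS_GFP 2 for hepatocyte markers, at 232 CPM.

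The baseline of the tumour-free heart is described by its 15 most abundant genes. Levels between genes are given per length, as CPM per kilobase of counted length (RPKM). Mb, the oxygen-binding myoglobin, was the most abundant, with 11414, 11355, 8779, 11873 and 11607 RPKM in PBS_REV-ERBa hearts, against 12741, 10915, 11834 and 12305 RPKM in PBS_GFP hearts. PBS_REV-ERBa 3 was the lowest of the 9. Next came Slc25a4, the ADP/ATP carrier of mitochondria, at a mean over the 9 hearts of 5191 RPKM, Pln, phospholamban, at 4458 RPKM, and Atp2a2, the calcium pump that phospholamban restrains, at 4262 RPKM. Myh6, the fast myosin heavy chain of the adult mouse heart, had 4058 RPKM, Ckm, muscle creatine kinase, 3768 RPKM, and Tcap, a titin-binding protein, 3229 RPKM. These neighbours were close: the heart ranges of Pln, Atp2a2 and Myh6 overlapped. The list of 15 was completed by Actc1, Tnnt2, Hspb7, Fabp3, Lpl, Ankrd1, Acta1 and Myl3, between 2610.5 and 1682 RPKM. For all 15 the groups overlapped. Counted without regard to length, the 10 genes with most counts in each library took 10.0% to 10.8% of its total. Acta1, skeletal actin, varied most, with 1785, 2489.8, 408, 1458 and 1729 RPKM in PBS_REV-ERBa hearts, against 1962, 1453, 1562 and 2328 RPKM in PBS_GFP hearts. PBS_REV-ERBa 3 was also the lowest heart here, as it was for Slc25a4, Pln, Ckm, Hspb7, Fabp3, Lpl, Ankrd1 and Myl3.

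**Figure D4:**
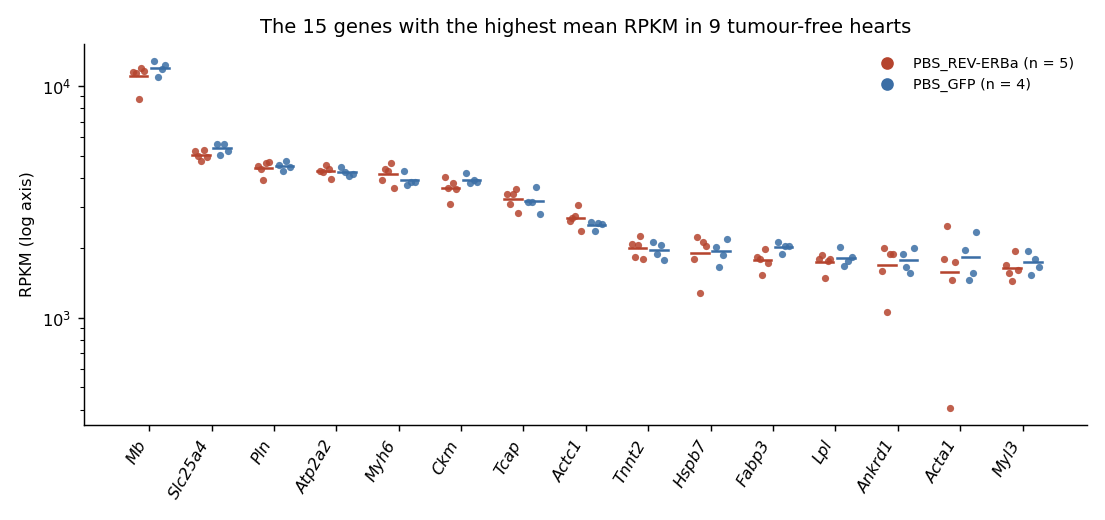
RPKM on a log axis of the 15 most abundant genes in each tumour-free heart, PBS_REV-ERBa hearts left of PBS_GFP hearts, with lines for group means. Mb lies well above the other 14 genes, and the isolated low Acta1 point, at 408 RPKM, is PBS_REV-ERBa 3.

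Hearts of 1 group resembled each other closely. The pooled standard deviation of log2(CPM + 1) within the groups had a median of 0.18 over all genes tested, with quartiles of 0.12 and 0.27, and 0.19 in tumour-bearing hearts. Of the 7245 genes with at least 20 CPM, 6094 had a value under 0.2, 62 exceeded 0.5 and 10 exceeded 1. Those 10 were the atrial genes Bmp10, Myl4, Sln, Sbk3, Nppa and Dkk3, the Y-linked Eif2s3y, and Cyp26b1, Angptl4 and Zbed6. Cyp26b1, which breaks down retinoic acid, had 70.6, 6.08, 8.59, 91.0 and 12.1 CPM in PBS_REV-ERBa hearts, against 3.67, 31.9, 5.45 and 11.6 CPM in PBS_GFP hearts. PBS_REV-ERBa 4 and PBS_REV-ERBa 1 were the high hearts, as they were for Angptl4. Zbed6, a repressor of Igf2, had 3.38, 5.22, 36.2, 19.0 and 17.5 CPM in PBS_REV-ERBa hearts, against 19.7, 47.3, 67.4 and 50.6 CPM in PBS_GFP hearts; it lies within Zc3h11a, so its counts are uncertain. At the other end Cdk16, a cyclin-dependent kinase, had 203, 201, 204, 203 and 203 CPM in PBS_REV-ERBa hearts, against 198, 192, 198 and 200.3 CPM in PBS_GFP hearts, and Rbfox2, a splicing factor, 322, 316, 317, 321 and 321 CPM in PBS_REV-ERBa hearts, against 301, 289.6, 301 and 304 CPM in PBS_GFP hearts. Both had higher values in every PBS_REV-ERBa heart, with log2 fold changes of only 0.04 ± 0.08 and 0.10 ± 0.06. Phb, Calu and Bace1 completed the 5 with the smallest spread.

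The tumour-free comparison was set beside that in tumour-bearing hearts, which shares none of its samples. The 2 comparisons are not separate in their spread, because a single fit of all 29 libraries gave it for both. The tumour-free intervals and p-values counted below therefore rest in part on how tumour-bearing hearts varied. With a tumour 931 genes passed (7.2%), 485 higher (3.75%) and 446 lower (3.45%) in C26_REV-ERBa than in C26_GFP hearts by edgeR. In tumour-free hearts the 485 had a median log2 fold change of -0.005, against 0.32 with a tumour, and 234 of them (48.2%) were above 0. The 446 had a median of -0.01, against -0.33 with a tumour, and 242 (54.3%) were below 0. For 903 of the 931 the tumour-free interval included 0, and for 618 it excluded the estimate from tumour-bearing hearts. The 931 were chosen by their tumour-bearing values, which fixed the sign of the medians with a tumour and tends to enlarge those estimates. The gap between the medians with and without a tumour is therefore not a measure of a lost effect. An unadjusted p under 0.05 without a tumour was reached by 28 of the 931, 14 in the same direction and 14 in the opposite one. Over all genes tested it was reached by 530 of 12928 (4.1%), so the 28 do not set the 931 apart. The difference between the 2 effects, tested gene by gene, passed for 0 of 12928 genes (0%; smallest edgeR adjusted p 0.278), with 1357 (10.5%) at an unadjusted p under 0.05, so for no single gene was the effect shown to differ between tumour-free and tumour-bearing mice. DESeq2 passed 15 genes and limma voom 4 in that test. The 2 groups of hearts also differ in number, 9 against 20.

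Single genes described above had these values in tumour-bearing hearts. Has3, higher in every tumour-free PBS_REV-ERBa heart, also passed in tumour-bearing hearts in the same direction, with a log2 fold change of 0.59 ± 0.14 (edgeR adjusted p = 0.0143), and Cd14 passed there on the lower side, with -0.36 ± 0.10 (edgeR adjusted p = 0.032). Npas2 had estimates of opposite sign, 0.99 ± 0.42 without and -0.59 ± 0.23 with a tumour, and the difference had an edgeR unadjusted p of 0.00242 and an adjusted p of 0.301. Nfil3 was -0.11 ± 0.33 without a tumour and passed at -0.79 ± 0.20 with one (edgeR adjusted p = 0.0215), and Dbp was 0.15 ± 0.36 without and passed at 0.86 ± 0.24 with one (edgeR adjusted p = 0.0321). Lrg1 was -0.23 ± 0.31 and passed at -1.15 ± 0.20 (edgeR adjusted p = 0.00566), and Myh7 was 0.18 ± 0.23 and passed at -0.80 ± 0.16 (edgeR adjusted p = 0.00843). In the fit of the 9 tumour-free hearts alone the SE was 0.157 for Nfil3, 0.089 for Dbp, 0.069 for Lrg1 and 0.068 for Myh7. The Hsp70 genes were below 0 in both, with -0.39 ± 0.26 for Hspa1b and -0.83 ± 0.34 for Hspa1a in tumour-bearing hearts, where neither passed.

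**Figure D5:**
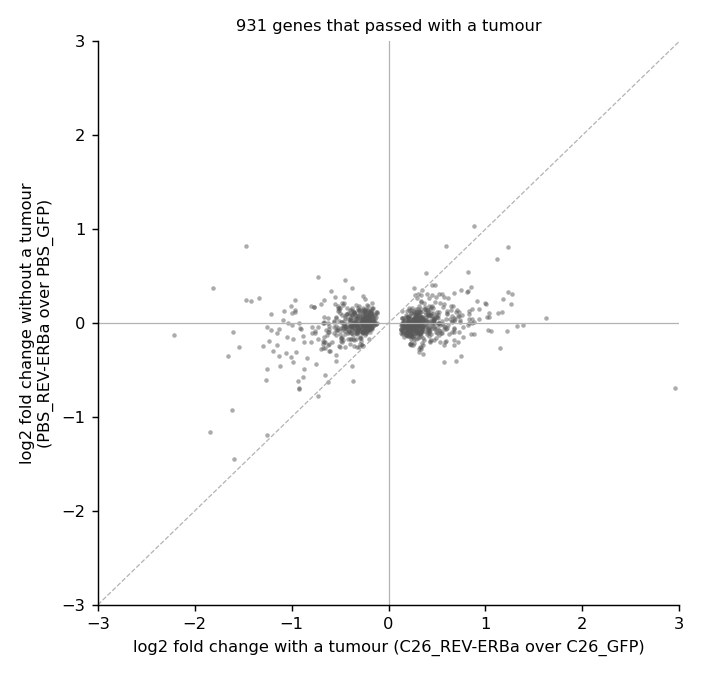
Each of the 931 genes that passed in tumour-bearing hearts, by its log2 fold change without a tumour (vertical axis, PBS_REV-ERBa over PBS_GFP) and with one (horizontal axis, C26_REV-ERBa over C26_GFP); the dashed line marks equal values. The points lie along the horizontal axis, with medians of -0.005 and -0.01 without a tumour for the genes that were higher and lower with one. The genes were chosen by their values on the horizontal axis.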

How the data were processed

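Total RNA of 29 hearts, 1 per mouse, was sequenced as paired-end reads without selection of polyadenylated RNA, per the labels' protocols. The authors deposited raw read counts per RefSeq gene. STAR 2.4.2a, DESeq2 1.24.0 and mm10 are named, without a role, in the submitters' processing notes. No source used here gives the counting tool or its strand setting, so overlapping, antisense and near-identical genes are uncertain. Deposited columns were matched to samples by name, and 1 that matched none was not used. Starts were raised by 1 to be 1-based.

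The tools were R 4.3.3, edgeR 4.0.16 and limma 3.58.1. Low counts were filtered with filterByExpr (at least 10 counts per library and 15 in total), and TMM set the library sizes. A single quasi-likelihood fit over all 29 libraries held 4 group means, so tumour-bearing hearts shared in the estimate of spread, and a gene passed when its Benjamini-Hochberg adjusted p was under 0.05. The SE is the size of the log2 fold change divided by the square root of F. CPM and RPKM use TMM-scaled totals and the deposited counted length (at least 200 bases). Fold changes are PBS_REV-ERBa over PBS_GFP. Totals of 3207497 to 14740569 set the precision: 3 counts are up to 0.92 CPM. All 36 pairs of the 9 libraries differed by more than sampling noise, with a chi-square of at least 2.63 per degree of freedom.

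The members and the 48 gene lists (25 of pathways, 23 of cell types) were chosen with earlier results of these data known, and 844 of 849 entries were in the table. Named genes were the clock lists, the 5 smallest p in each direction at a mean of at least 5 CPM with a proper symbol, the 2 members of each pathway list with the smallest p (4 of the receptors), the 15 highest in RPKM, the 10 largest and 5 smallest in spread at a mean of at least 20 CPM, and up to 2 most abundant markers per cell type. Other list members (for example Pdk4, Ucp3, Myh7, Lrg1, Hsp90aa1, Dnajb1), Cyp3a11 and Acot1 were named after their values were seen. The values of 1 list member are not reported here. The procedure was tested on simulated data. Alternatives were other scaling, filters and thresholds, DESeq2 1.42.0, limma voom, 1 surrogate variable (sva 3.50.0), a replicate block, thinning, the 9 hearts alone, and leaving out deep, atrial-rich or single libraries.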

Additional observations from a re-analysis of the deposited data

Results flagged for a closer look

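In 39 of 332 sets of values (11.7%), each the 5 PBS_REV-ERBa or the 4 PBS_GFP hearts for 1 gene, marker sum or library measure, the highest or lowest heart lay far from its group by Dixon's criterion. Chance flags about 1 in 20 sets of independent values, but these genes were partly chosen for their wide spread and many were high in the same hearts, so the share is a description and not a comparison with chance. PBS_GFP 2 accounts for 15 and PBS_REV-ERBa 3 for 14. These 2 hearts were high for atrial genes: in PBS_REV-ERBa 3 and PBS_GFP 2, Bmp10 had 33.9 and 372 CPM, Nppa 1519 and 2565 CPM, Sln, the calcium pump inhibitor sarcolipin, 91.2 and 108 CPM, Dkk3, a Wnt antagonist, 202 and 249 CPM, and Pam, a peptide-amidating enzyme, 1102 and 1068 CPM. Summed atrial markers were 3424 and 4764 CPM. The kinase gene Sbk3 had 129 CPM and Myl4, the atrial light chain, 162 CPM in PBS_REV-ERBa 3, where conduction markers summed to 205 CPM. Npr3, the natriuretic peptide clearance receptor, had 85.9 CPM in PBS_GFP 2.

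PBS_GFP 2 was also high for hepatocyte markers, at 232 CPM in sum, with Fga at 13.3 CPM, Fgg at 2.93 CPM and Tat, a liver enzyme of tyrosine breakdown, at 1.23 CPM. It was high for smooth muscle markers, at 737 CPM, with Acta2 at 180.3 CPM, and for mesothelial Upk3b, at 8.803 CPM, and low for Ryr2, at 2156 CPM. In PBS_REV-ERBa 3 Tat had 0.232 CPM against 0 in the other 4 hearts, Hlf was high at 182 CPM, and Mb was low at 8726 CPM, Rcan1, a calcineurin inhibitor, at 113 CPM and Loxl2, a collagen crosslinking enzyme, at 20.7 CPM.

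The rest were single genes in other hearts. PBS_REV-ERBa 4 was high for Nr1d1, at 259 CPM, and for Thra, at 82.6 CPM, and PBS_REV-ERBa 5 for Aftph, at 47.4 CPM, and epicardial Wt1, at 18.7 CPM. PBS_REV-ERBa 2 was high for Has3, at 18.0 CPM, and for neutrophil markers, at 4.05 CPM in sum. PBS_GFP 3 was high for Cirh1a, at 9.18 CPM, and for Mki67, a proliferation marker, at 20.9 CPM, and PBS_GFP 4 for Nrn1, at 7.27 CPM, and platelet Gp1ba, at 14.2 CPM.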

How the results depend on the processing

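The count of 0 genes passing without a tumour was kept under 21 of 25 alternatives, among them each library left out in turn (0 to 0, with 441 to 656 genes at an unadjusted p under 0.05). The threshold of 0.1, also among the 21, reuses the main fit, so its 0 followed from the adjusted p-values already given. It was 1 in the fit of the 9 tumour-free hearts alone (Hspa1a), 1 in that fit with the replicate number as a block (Hspa1b), 1 with limma voom (Hspa1b) and 1 with DESeq2 (Cyp3a11). The count for the difference between effects was also 0 to 0 when each library was left out, 4 with limma voom (Cd63, Dld, Glrx and Leng8) and 15 with DESeq2. The 931 genes that passed with a tumour were 291 with the replicate number as a block over 29 libraries, 1709 at an adjusted p under 0.1, 607 when counts were thinned to the smallest total, and 1772 with limma voom. The replicate number comes from the sample titles, and whether it marks a batch was not tested. The correlation of the deviations of same-numbered hearts was 0.02, -0.17, 0.06 and 0.02 for numbers 1 to 4. The block over 29 libraries left 0 genes passing without a tumour. The main fit had 0 too, so that count cannot show what the number stands for. Without a filter on low counts, 43.3% of the genes with an unadjusted p under 0.05 were higher in PBS_REV-ERBa hearts, against 52.6% with it. Median spread was 0.169 to 0.18 when each library was left out. Of 3496 values of 141 named genes 3464 stayed on their side of the threshold with at most a turn of sign smaller than 1 SE. In 18 genes 29 values turned their sign by 1 SE or more, and the cause was not tested. Without the libraries above 10000000 counts the log2 fold changes were -0.028 for Cry1, 1.67 for Tat, -0.13 for Klf2, 0.36 for Mstn, 5.38 for Bmp10, 1.72 for Sln, 0.99 for Sbk3, 1.64 for Nppa, 1.28 for Dkk3, 0.26 for Npr3, 0.056 for Alas2, 0.10 for Ppbp, 0.12 for Myl1 and 0.38 for Trf. Leaving out each library in turn gave -4.71 to 0.022 for Tat, -12.5 to 6.73 for Bmp10, -1.70 to 2.73 for Myl4, -2.57 to 2.98 for Sln, -1.52 to 1.84 for Sbk3, -1.68 to 2.10 for Nppa, -1.48 to 1.92 for Dkk3, -0.28 to 0.85 for Angptl4, -0.079 to 0.13 for Gsn, -0.40 to 0.25 for Npr3, -0.82 to 0.17 for Trf and -2.02 to 0.69 for Ahsg. The lowest of these came without PBS_REV-ERBa 3 (PBS_REV-ERBa 4 for Angptl4) and the highest without PBS_GFP 2 (PBS_REV-ERBa 5 for Angptl4), and those of Bmp10 are fitted values against hearts near 0, which bound nothing. Sln was 1.25 with limma voom, and Nppa was 1.22 with the replicate block in the 9 hearts and 1.02 without the atrial-rich hearts. Of 1169 list medians 114 turned their sign and 72, in 25 lists, moved by the spread or more. Depth limits genes of few counts: 3 counts are up to 0.92 CPM, so Arntl and the neutrophil markers are poorly resolved.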

Other observations

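The gene list of widest spread held 1 gene of the Y chromosome, Eif2s3y, a translation factor subunit, whose neighbours on that chromosome did not vary with it. It had 33.8, 9.56, 39.0, 30.3 and 30.5 CPM in PBS_REV-ERBa hearts, against 28.1, 35.3, 0 and 26.7 CPM in PBS_GFP hearts. PBS_GFP 3 had 0 counts, which allows up to 3 counts, and PBS_REV-ERBa 2 had 33 counts. In the same 9 hearts the Y-linked Ddx3y, an RNA helicase, had 96.4 to 127 CPM, Kdm5d, a histone demethylase, 15.1 to 22.7 CPM and Uty 11.6 to 17.5 CPM. The X-linked counterpart Eif2s3x had 22.0 to 26.7 CPM. Of these 4 Y-linked genes the low values were found for Eif2s3y only, in 1 heart of each group.

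The order of the PBS_REV-ERBa hearts for Angptl4, Pdk4 and Ucp3 recurred in Acot1, a thioesterase that fatty acids induce, chosen after its values were seen. It had 39.6, 30.4, 38.3, 48.5 and 16.7 CPM in PBS_REV-ERBa hearts, against 27.4, 36.6, 44.5 and 31.7 CPM in PBS_GFP hearts. As for those 3 genes, PBS_REV-ERBa 4 was the highest of the 5 PBS_REV-ERBa hearts, and the groups overlapped, with a log2 fold change of 0.00 ± 0.48.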
